A study of Zea mays with 18 samples.

Results

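The 7 genes described here encode small heat shock proteins of the HSP20 family and were chosen from 36321 maize genes with an expression value. They are HSP20 genes of a heat map in the study whose level at 1 h of heat was above the level before heat in at least 1 genotype. The gene IDs were Zm00001eb337690, Zm00001eb395360, Zm00001eb011900, Zm00001eb257130, Zm00001eb311990, Zm00001eb032310 and Zm00001eb352720. Because the change between 0 h and 1 h chose them, that change is given below as a description, with no test, and the rule names no minimum size for it. The IDs carry the annotation of the alpha crystallin/Hsp20 domain in the study's gene lists, and no further gene name was used. Those lists hold differentially expressed genes found in these same samples. Counts of the 7 genes above the share of all genes are therefore partly built in throughout.

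Small heat shock proteins are chaperones that work without ATP. They assemble through their alpha crystallin domain into oligomers, bind proteins that begin to unfold in the heat and hold them in a state from which HSP70 and HSP101 machines can refold them. In plants the family is large, its members sit in the cytosol and in several organelles, and many are nearly silent in unstressed leaves until heat stress transcription factors switch them on. NF-YA proteins are the DNA-contacting subunits of the NF-Y complex, which binds the CCAAT box.

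Leaf RNA of the maize inbred W22 and of the mutant *nf-ya1* was sequenced at 3 sampling times with 3 libraries each, 18 libraries in all. The *nf-ya1* mutant is 1 line of the UniformMu collection in the W22 background, with a *Mu* transposon insertion in Zm00001eb005690 (*ZmNF-YA1*). The groups are named 0 h (control, normal conditions), 1 h (mild heat stress for 1 h) and R2h (recovery for 2 h after mild heat stress), and no other agent or allele is given for any of them. The study's discussion of its differentially expressed genes names moderate heat, the lowest of its 3 heat temperatures. The study describes seedling age and heating time for a qRT-PCR time course that also ends in R2h. It does not say whether these libraries followed that schedule. The general treatment text of the deposit names other durations, so the sample titles were followed. The titles of the R2h libraries do not give the length of the heat before recovery, so it may differ from 1 h. Values are FPKM, fragment numbers scaled for the length of the transcript and for the mapped fragments of the library, so that levels of different genes can be set side by side.

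Expression of *ZmNF-YA1* itself was not absent from the *nf-ya1*-labelled libraries. Its FPKM before heat was 23.12, 22.79 and 26.55 in W22 and 13.01, 12.60 and 21.15 in the *nf-ya1*-labelled libraries, a log2 fold change of -0.64 (adjusted p = 0.0182, limma). The mean was 64.5% of W22 at 0 h, 80.3% at 1 h and 80.3% at R2h. The log2 fold change was -0.33 at 1 h (adjusted p = 0.206, limma) and -0.30 at R2h (adjusted p = 0.297, limma). The study describes the mutant as lacking transcripts of this gene. Where the reads fall relative to the insertion was not analysed here. The genotype is therefore given throughout as the label of the library. Summed FPKM per library lay between 804977 and 928910, between 24637 and 28580 genes were above 0, and no read numbers per gene were used, which leaves counting error unknown. The study's lists of differentially expressed genes, made from these samples, hold 21 chlorophyll a-b binding protein genes, used here as leaf markers. Shifts of such genes between groups are partly built in. Of these 21 genes, 18 to 21 were above 0 in each library. Their summed FPKM was 48009 to 53281 in W22 at 0 h and 66038 to 69484 in the *nf-ya1*-labelled libraries at 0 h. At 1 h it was 12859 to 21261 in W22 and 25829 to 65925 in the *nf-ya1*-labelled libraries, and its part in the results below was not tested. In whole leaf tissue, fewer cells of a type and less RNA per cell cannot be told apart.

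Together the 7 genes went from a trace of the leaf transcriptome to a visible share of it and back. In W22, they held 0.128% to 0.140% of the summed FPKM before heat, 2.25% to 2.40% under heat and 0.0902% to 0.139% in recovery. In the *nf-ya1*-labelled libraries the share was 0.0299% to 0.0703% before heat, 2.88% to 3.86% under heat and 0.155% to 0.189% in recovery. At no time did the shares of the 2 genotypes overlap: the *nf-ya1*-labelled libraries were lower before heat and higher at 1 h and at R2h. The share is weighted towards the most abundant genes and does not show a shift of each gene. In W22 at 0 h, Zm00001eb011900 had a mean of 910.2 FPKM, where the 7 genes summed to 1115.01 to 1204.55. At R2h, 0 of the 7 genes were called between the genotypes. The study's lists of differentially expressed genes hold 43 HSP20 genes, the 7 included. Together these 43 took 16.4% to 17.3% of the FPKM in W22 at 1 h and 17.4% to 18.3% in the *nf-ya1*-labelled libraries. The 7 genes were thus a minor part of the 43 at 1 h.

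**Figure D1:**
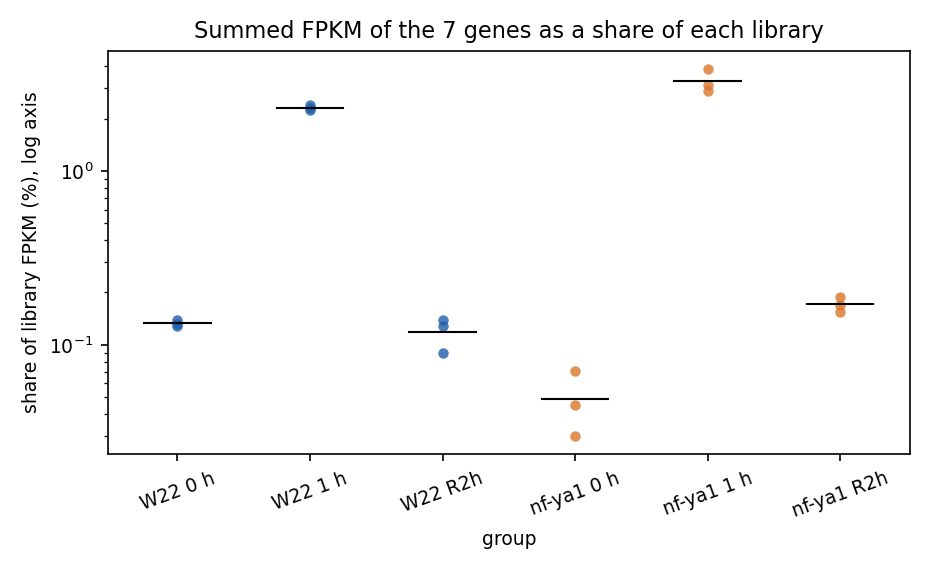
Share of each library's summed FPKM held by the 7 HSP20 genes (percent, log axis) in the 6 groups; points are libraries and bars are group means. The share in the nf-ya1-labelled libraries lies below W22 at 0 h (0.0299% to 0.0703% against 0.128% to 0.140%) and above it at 1 h and R2h.

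Zm00001eb337690 was nearly silent before heat and high under heat. W22 leaves gave FPKM values of 3.17, 3.65 and 1.53 before heat, 1952.16, 1805.95 and 1796.12 under heat and 64.85, 68.81 and 70.34 in recovery. Under the *nf-ya1* label the values were 1.15, 0.08 and 1.20 before heat, 4150.88, 3871.94 and 4210.29 under heat and 140.57, 100.06 and 107.27 in recovery. The 6 groups did not overlap anywhere, with *nf-ya1* at 1 h highest and *nf-ya1* at 0 h lowest.

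Zm00001eb395360 was already expressed before heat. The W22 libraries stood at 73.83, 81.33 and 85.16 FPKM before heat, 4431.36, 3878.43 and 3509.51 under heat and 288.89, 365.34 and 359.37 in recovery. Libraries with the *nf-ya1* label gave 19.91, 14.93 and 35.17 before heat, 8621.92, 9860.95 and 11822.55 under heat and 478.91, 253.86 and 348.83 in recovery. The genotypes were apart at 0 h and at 1 h, in opposite directions, and overlapped at R2h.

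Zm00001eb011900 had the highest mean FPKM of the 7 genes in every group. W22 leaves gave FPKM values of 867.33, 915.03 and 948.28 before heat, 13959.41, 13387.88 and 13285.21 under heat and 416.67, 727.66 and 651.24 in recovery. Under the *nf-ya1* label the values were 280.90, 183.17 and 403.53 before heat, 12458.27, 12043.79 and 14106.48 under heat and 743.62, 1330.94 and 1011.93 in recovery. The genotypes overlapped at 1 h, where the gene ranked 5 or 6 of all genes by FPKM in each W22 library and 3 or 4 in each *nf-ya1*-labelled library. At 0 h the *nf-ya1*-labelled libraries were all lower, and at R2h all were higher, by a narrow gap between 743.62 and 727.66.

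Zm00001eb257130 was the second most abundant before heat. Its values at R2h lay below those at 0 h in both genotypes, under the *nf-ya1* label by a narrow gap between 40.71 and 41.28. The W22 libraries stood at 162.34, 194.11 and 152.82 FPKM before heat, 1166.58, 1221.90 and 1157.53 under heat and 14.91, 45.05 and 48.79 in recovery. Libraries with the *nf-ya1* label gave 71.38, 41.28 and 122.44 before heat, 1470.46, 1887.08 and 3941.87 under heat and 33.40, 40.71 and 34.17 in recovery. Replicate 3 of *nf-ya1* at 1 h stood far above the other 2, and the genotypes did not overlap at 0 h or at 1 h but did at R2h.

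The remaining 3 genes were low. For Zm00001eb311990, W22 gave FPKM values of 4.14, 6.18 and 5.05 before heat, 39.15, 40.58 and 38.07 under heat and 0.34, 1.72 and 2.47 in recovery. Under the *nf-ya1* label the values were 2.15, 1.02 and 0 before heat, 43.24, 25.89 and 40.84 under heat and 0.34, 0.86 and 0 in recovery. It is listed at 0 in 1 library of *nf-ya1* at 0 h and in 1 at R2h, and the genotypes were apart at 0 h alone.

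Zm00001eb032310 was higher at 1 h in W22, while its heat response in the *nf-ya1*-labelled libraries depends on the scale of the libraries. W22 leaves gave FPKM values of 1.79, 2.11 and 1.37 before heat, 6.50, 4.97 and 9.51 under heat and 1.01, 2.94 and 2.41 in recovery. Libraries with the *nf-ya1* label gave 2.35, 2.75 and 3.07 before heat, 4.81, 2.44 and 1.70 under heat and 2.23, 1.38 and 1.31 in recovery. W22 at 1 h lay above every other group, and the *nf-ya1*-labelled libraries at 1 h spanned those at 0 h.

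Zm00001eb352720 was the one gene of the 7 whose FPKM was highest at R2h. The W22 libraries stood at 2.41, 2.14 and 1.86 FPKM before heat, 4.77, 3.47 and 4.72 under heat and 8.49, 8.69 and 9.49 in recovery. Under the *nf-ya1* label the values were 0.76, 1.14 and 0.52 before heat, 3.31, 2.35 and 2.93 under heat and 6.67, 10.72 and 8.23 in recovery. The genotypes were apart at 0 h and at 1 h, with W22 higher, and overlapped at R2h.

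**Figure D2:**
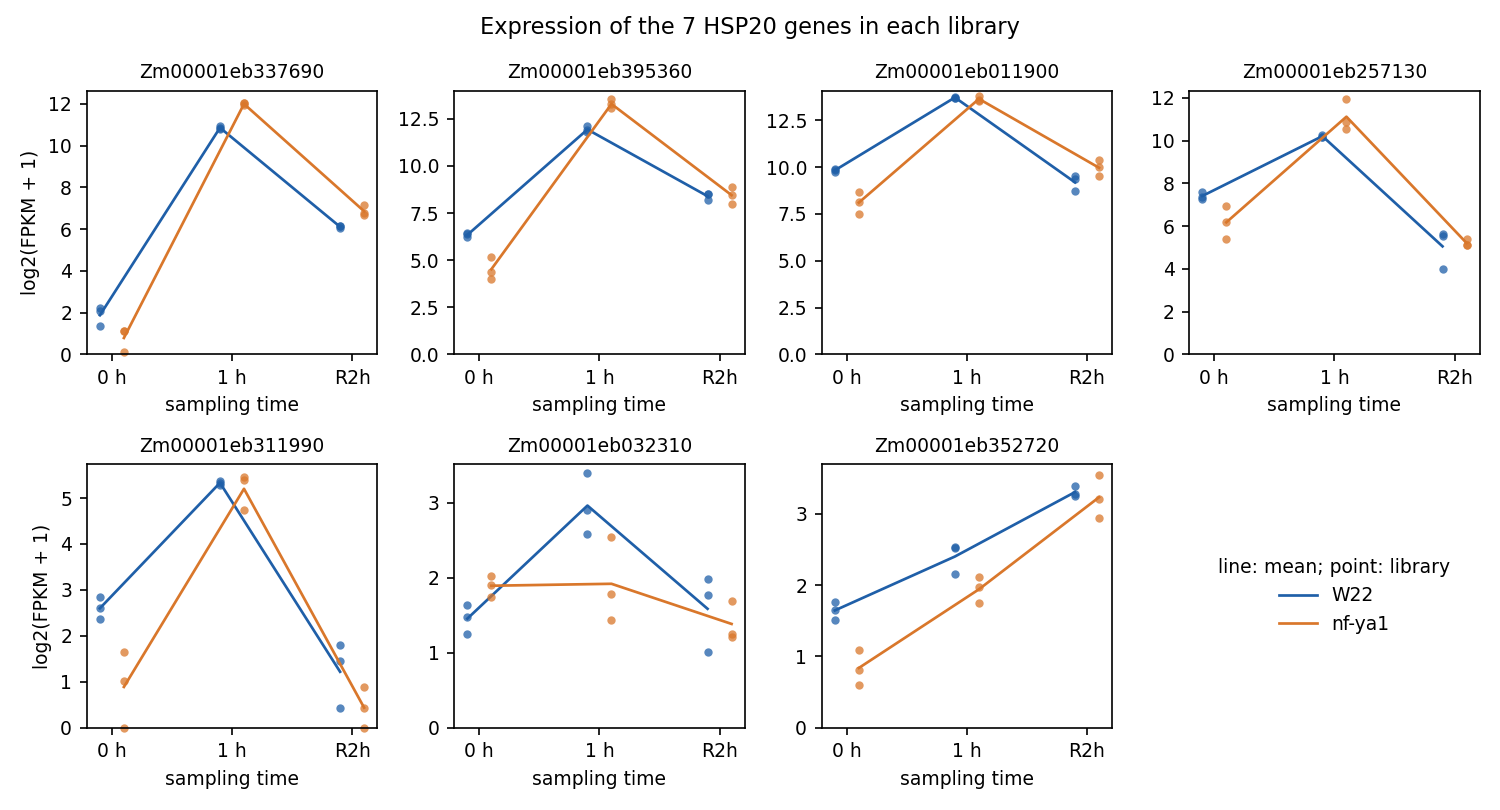
Expression of each of the 7 HSP20 genes as log2(FPKM + 1) in every library, with 1 panel per gene and its own vertical scale; points are libraries and lines join group means of W22 and the nf-ya1-labelled libraries. The level is highest at 1 h in at least 1 genotype for 6 genes, and Zm00001eb352720 is highest at R2h in both.

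Differences were measured on the scale of log2(FPKM + 1), which understates the change of genes with low FPKM such as Zm00001eb311990, Zm00001eb032310 and Zm00001eb352720. All 18 libraries were fitted together with limma, and the standard error (SE) of a difference between any 2 groups was 0.25 for Zm00001eb337690, 0.26 for Zm00001eb395360, 0.27 for Zm00001eb011900, 0.43 for Zm00001eb257130, 0.39 for Zm00001eb311990, 0.29 for Zm00001eb032310 and 0.17 for Zm00001eb352720. The threshold for a call was an adjusted p of at most 0.01 (Benjamini-Hochberg over the 22572 genes tested) together with a log2 fold change of at least 1 in size. All 7 genes were among the genes tested.

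The heat response that chose the genes was as follows. In W22 the log2 fold change of 1 h over 0 h was 8.98 for Zm00001eb337690, 5.60 for Zm00001eb395360, 3.89 for Zm00001eb011900, 2.80 for Zm00001eb257130, 2.73 for Zm00001eb311990, 1.51 for Zm00001eb032310 and 0.76 for Zm00001eb352720. In the *nf-ya1*-labelled libraries it was 11.21, 8.77, 5.54, 4.94, 4.31, 0.03 and 1.10 in the same order. Zm00001eb032310 and Zm00001eb352720 are thus the genes nearest the edge of the rule. With median-ratio scaling the changes of Zm00001eb032310 were 2.11 and 0.89 and those of Zm00001eb352720 were 1.34 and 1.84, in W22 and in the *nf-ya1*-labelled libraries. The *nf-ya1* change exceeded the W22 change by 3.17 for Zm00001eb395360, 2.23 for Zm00001eb337690, 2.14 for Zm00001eb257130, 1.65 for Zm00001eb011900, 1.58 for Zm00001eb311990 and 0.35 for Zm00001eb352720, and was smaller by 1.48 for Zm00001eb032310 (difference of -1.48). The median of all genes changed by -0.51 in W22 and by -0.92 in the *nf-ya1*-labelled libraries between 0 h and 1 h, and the median over all genes of the difference between the genotypes was -0.35.

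**Figure D3:**
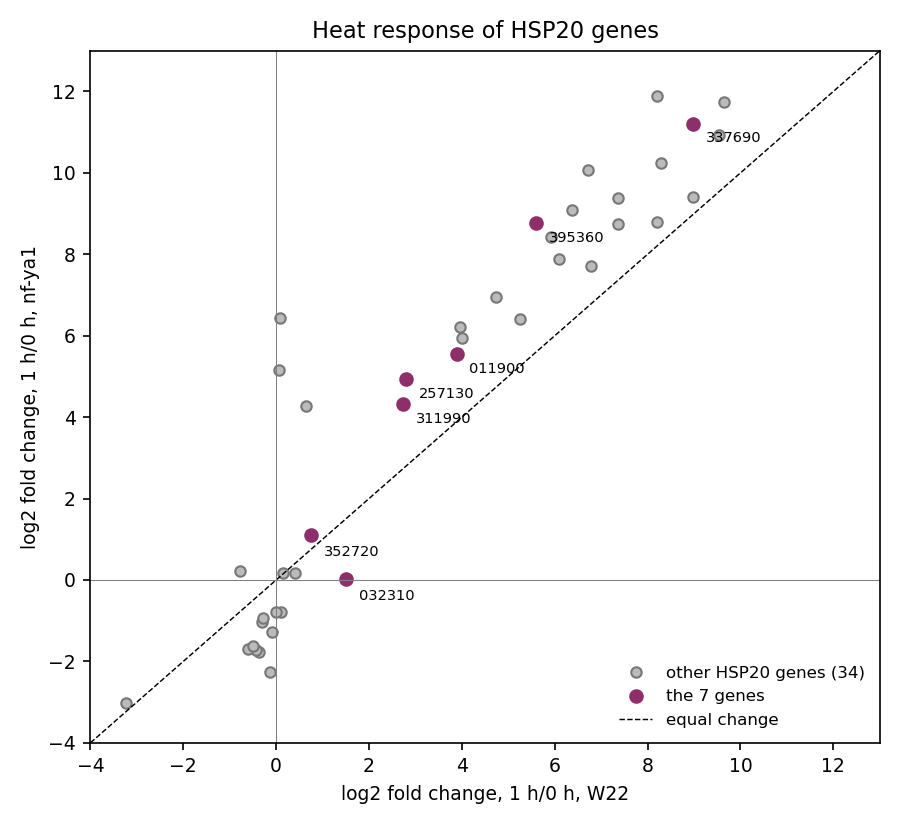
Log2 fold change of 1 h over 0 h in W22 (horizontal) and in the nf-ya1-labelled libraries (vertical) for 41 HSP20 genes on the log2(FPKM + 1) scale; purple points are the 7 genes, marked by the end of their ID, grey points the other 34, and the dashed line marks equal change. Of the 7 genes, 6 lie above the line and Zm00001eb032310 (1.51 in W22, 0.03 in nf-ya1) lies below it.

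Before heat, 4 of the 7 genes were lower in the *nf-ya1*-labelled libraries and none was called higher, where 5.00% of all genes were called lower and 14.9% higher. Zm00001eb395360 was lower, at -1.82 on the log2 scale (SE 0.26, adjusted p = 5.61e-05, limma), a mean of 23.3 against 80.1 FPKM. Zm00001eb011900 was lower by -1.72 (SE 0.27, adjusted p = 0.000123) and Zm00001eb311990 by -1.71 (SE 0.39, adjusted p = 0.00216). Zm00001eb337690, nearly silent in both genotypes, was lower by -1.09 (SE 0.25, adjusted p = 0.00225). The other 3 were not called. Zm00001eb257130 had a log2 fold change of -1.23 (adjusted p = 0.0281), Zm00001eb352720 of -0.81 (adjusted p = 0.00145, under the fold threshold) and Zm00001eb032310 of 0.44 (adjusted p = 0.23). In single libraries, the *nf-ya1* values lay wholly below W22 for 6 genes, against 15.7% of all genes, and wholly above it for Zm00001eb032310, against 39.9%. At an unadjusted p under 0.05, 6 genes were lower and 0 higher, against 15.8% and 39.4% of all genes. This comparison uses the 0 h libraries of the rule, in which a low value raises the heat response. The 7 genes are also on the study's lists of differentially expressed genes, made from these samples. Shares above those of all genes are therefore partly built in.

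Single libraries decide part of that count. Without replicate 3 of *nf-ya1* at 0 h, the highest of its group for 5 of the 7 genes, Zm00001eb257130 was called lower (-1.62, adjusted p = 0.00952) and Zm00001eb311990 was not (-1.27, adjusted p = 0.0118). Zm00001eb257130 was also called without replicate 1 of W22 at R2h (-1.23, adjusted p = 0.00989). Zm00001eb311990 was also lost without replicate 2 of W22 at 0 h (-1.59, adjusted p = 0.0114). Zm00001eb337690 was lost without replicate 1 or 2 of W22 at 0 h (-0.99 and -0.92) and without replicate 2 of *nf-ya1* at 0 h (-0.75). The 2 remaining calls, Zm00001eb395360 and Zm00001eb011900, held with each of the 18 libraries left out in turn. Fitted on the 0 h libraries alone, Zm00001eb311990 (adjusted p = 0.0254) and Zm00001eb337690 (adjusted p = 0.0628) were not called. With a pseudocount of 0.1 in place of 1, Zm00001eb311990 was at -3.03 (adjusted p = 0.0184) and Zm00001eb352720 was called lower, at -1.35 (adjusted p = 0.000428).

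At 1 h, 2 of the 7 genes were called higher and 1 was called lower in the *nf-ya1*-labelled libraries. These are the 1 h libraries that the choice of the genes used, in which a high value raises the heat response. Zm00001eb395360 was higher in the *nf-ya1*-labelled libraries by 1.35 on the log2 scale (SE 0.26, adjusted p = 0.000689) and Zm00001eb337690 by 1.14 (SE 0.25, adjusted p = 0.00164), where 9.06% of all genes were called higher. In mean FPKM these are 10102 against 3940 and 4078 against 1851. Zm00001eb257130 had a log2 fold change of 0.91 (95% interval -0.01 to 1.83, adjusted p = 0.0982), which was 0.50 without replicate 3 of *nf-ya1* at 1 h. Zm00001eb011900 and Zm00001eb311990 had changes of -0.08 (-0.66 to 0.50) and -0.13 (-0.96 to 0.70), and these intervals reach neither a halving nor a doubling. Their sign turned with the scaling of the libraries, to 0.07 and 0.02 with median-ratio scaling. Zm00001eb352720 had a change of -0.46 (adjusted p = 0.0403). The call of Zm00001eb337690 was lost with a pseudocount of 0.1 (adjusted p = 0.0859) and that of Zm00001eb395360 with quantile normalization (0.90, adjusted p = 0.0144).

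One gene was called lower at 1 h, Zm00001eb032310, at -1.04 on the log2 scale (SE 0.29, adjusted p = 0.00906), where 7.33% of all genes were called lower. This call lay just inside the threshold and was lost with 12 of the 18 libraries left out singly. It was -0.80 (adjusted p = 0.0447) without replicate 3 of *nf-ya1* at 1 h and -0.82 (adjusted p = 0.0523) without replicate 3 of W22 at 1 h. With the replicate number as a block its adjusted p was 0.0159.

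The rise at 1 h that chose the genes did not use the R2h libraries. The study's own comparisons for differentially expressed genes, however, included recovery. At R2h limma called 0 of the 7 genes, where 5.14% of all genes were called higher and 3.10% lower. At an unadjusted p under 0.05, 2 were higher and 0 lower, against 18.7% and 20.8% of all genes. These were Zm00001eb011900 (log2 fold change 0.78, 95% interval 0.20 to 1.36, adjusted p = 0.0453) and Zm00001eb337690 (0.75, 0.22 to 1.28, adjusted p = 0.0369), and they were the genes whose libraries did not overlap between the genotypes. Wholly higher values were seen for 24.1% of all genes. The other 5 had log2 fold changes of 0.16 (Zm00001eb257130), 0.05 (Zm00001eb395360), -0.07 (Zm00001eb352720), -0.20 (Zm00001eb032310) and -0.78 (Zm00001eb311990). Replicate 1 of W22 at R2h was the lowest of its group for 7 of 7 genes. Without it Zm00001eb011900 was at 0.54 (adjusted p = 0.188), Zm00001eb337690 at 0.71 (adjusted p = 0.0923), Zm00001eb311990 at -1.18 (adjusted p = 0.0414) and Zm00001eb257130 at -0.37 (adjusted p = 0.527).

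**Figure D4:**
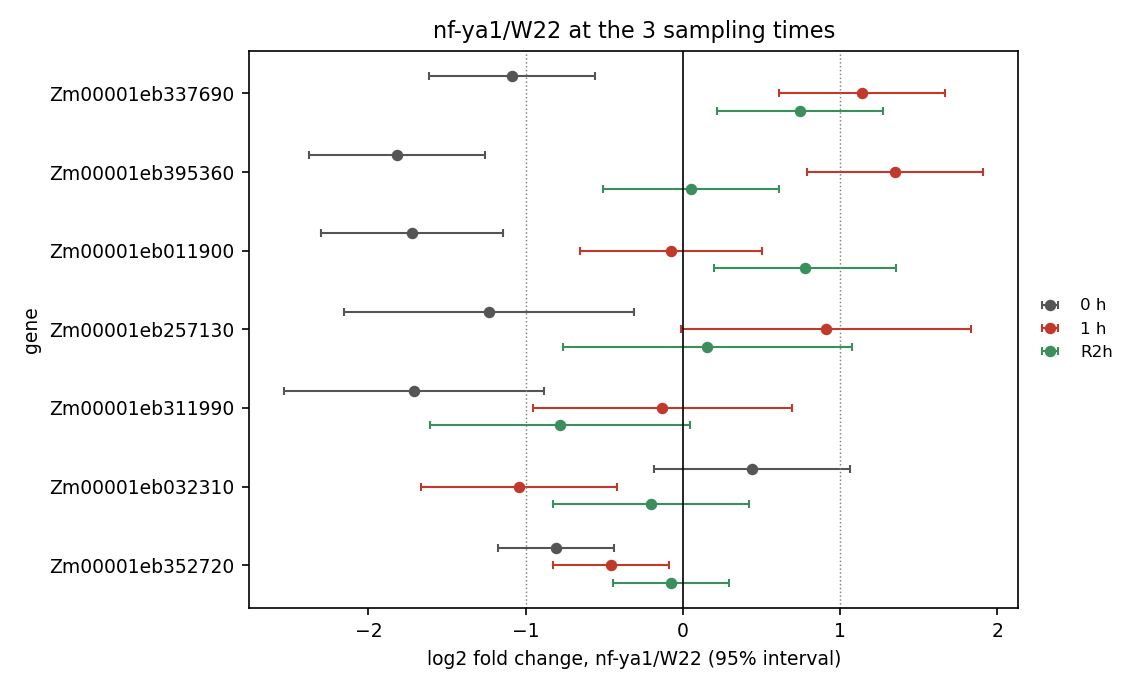
Log2 fold change of nf-ya1/W22 on the log2(FPKM + 1) scale for each of the 7 genes at 0 h, 1 h and R2h; points are estimates over 3 libraries a group, bars are 95% intervals, the solid line marks no difference and the dotted lines the fold threshold of 1. Zm00001eb337690 and Zm00001eb395360 lie below 0 at 0 h (-1.09 and -1.82) and above 0 at 1 h (1.14 and 1.35).

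Levels at R2h were mostly far below those at 1 h. The titles do not give the length of heat before R2h, so the percentages need not measure decay from the 1 h level. In W22 the mean FPKM at R2h was 3.07% of that at 1 h for Zm00001eb257130, 3.67% for Zm00001eb337690, 3.85% for Zm00001eb311990, 4.42% for Zm00001eb011900 and 8.58% for Zm00001eb395360. In the *nf-ya1*-labelled libraries it was 1.48%, 2.84%, 1.09%, 7.99% and 3.57% in that order. Zm00001eb032310 was at 30.3% in W22 and 55.0% in the *nf-ya1*-labelled libraries. Zm00001eb352720 was the exception, at 206% and 298%, but that further rise depends on the scale. Its log2 fold change of R2h over 1 h was 0.90 in W22 and 1.29 in the *nf-ya1*-labelled libraries as deposited, and 0.08 and 0.44 with median-ratio scaling, since the median of all genes changed by 0.66 and 0.76 between these times.

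Recovery did not return all genes to their level before heat. In W22, 3 of the 7 were called higher at R2h than at 0 h (3.96% of all genes) and 1 was called lower (1.87%). Zm00001eb337690 was higher by 4.24 on the log2 scale (SE 0.25, adjusted p = 4.08e-08), Zm00001eb395360 by 2.06 (SE 0.26, adjusted p = 6.09e-05) and Zm00001eb352720 by 1.66 (SE 0.17, adjusted p = 9.95e-06). Zm00001eb257130 fell below its starting level, with a change of -2.36 (SE 0.43, adjusted p = 0.00118), or -1.83 (adjusted p = 0.00482) without replicate 1 of W22 at R2h. Zm00001eb311990 was at -1.38 (adjusted p = 0.0179), Zm00001eb011900 at -0.64 (adjusted p = 0.105) and Zm00001eb032310 at 0.13 (adjusted p = 0.826). Zm00001eb311990 was called lower without replicate 1 or replicate 3 of *nf-ya1* at 0 h (adjusted p = 0.00932 and 0.00557), which enter through the shared spread. With only the groups compared in the fit, the call of Zm00001eb257130 was lost (adjusted p = 0.015).

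The *nf-ya1*-labelled libraries had 4 genes called higher at R2h than at 0 h (6.89% of all genes) and 0 called lower (11.6% of all genes, with 1 of the 7 lower at an unadjusted p under 0.05, against 30.9% of all genes). Zm00001eb337690 was higher by 6.07 (SE 0.25, adjusted p = 2.06e-10), Zm00001eb395360 by 3.93 (SE 0.26, adjusted p = 2.68e-08), Zm00001eb352720 by 2.39 (SE 0.17, adjusted p = 6.01e-08) and Zm00001eb011900 by 1.86 (SE 0.27, adjusted p = 5.9e-05). Zm00001eb257130 was at -0.97 (adjusted p = 0.0811), Zm00001eb032310 at -0.51 (adjusted p = 0.172) and Zm00001eb311990 at -0.45 (adjusted p = 0.366). The call of Zm00001eb011900 was lost when only these groups were fitted (adjusted p = 0.0122). Each of these comparisons uses the 0 h libraries of its genotype, as the rule did.

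The difference between the genotypes in R2h over 0 h was tested directly as an interaction. It was called higher in *nf-ya1* for 3 of the 7 genes (3.16% of all genes) and lower for 0 (9.67% of all genes, and 0 of the 7 at an unadjusted p under 0.05, against 31.8% of all genes). Zm00001eb011900 had a difference of 2.50 (SE 0.38, adjusted p = 0.000333), Zm00001eb395360 of 1.87 (SE 0.37, adjusted p = 0.00194) and Zm00001eb337690 of 1.83 (SE 0.35, adjusted p = 0.00153). For Zm00001eb011900 the estimates had opposite signs, with R2h wholly below 0 h in W22 and wholly above it in the *nf-ya1*-labelled libraries. The W22 change was not called (-0.64, adjusted p = 0.105, limma), and it was -0.40 without replicate 1 of W22 at R2h. The other differences were 1.39 (Zm00001eb257130, adjusted p = 0.0962), 0.73 (Zm00001eb352720, adjusted p = 0.0335), 0.93 (Zm00001eb311990, adjusted p = 0.209) and -0.64 (Zm00001eb032310, adjusted p = 0.254). With a pseudocount of 0.1, Zm00001eb337690 was not called (2.79, adjusted p = 0.0145). The interaction holds the genotype difference at 0 h with the opposite sign, so it is not independent of the comparison before heat.

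**Figure D5:**
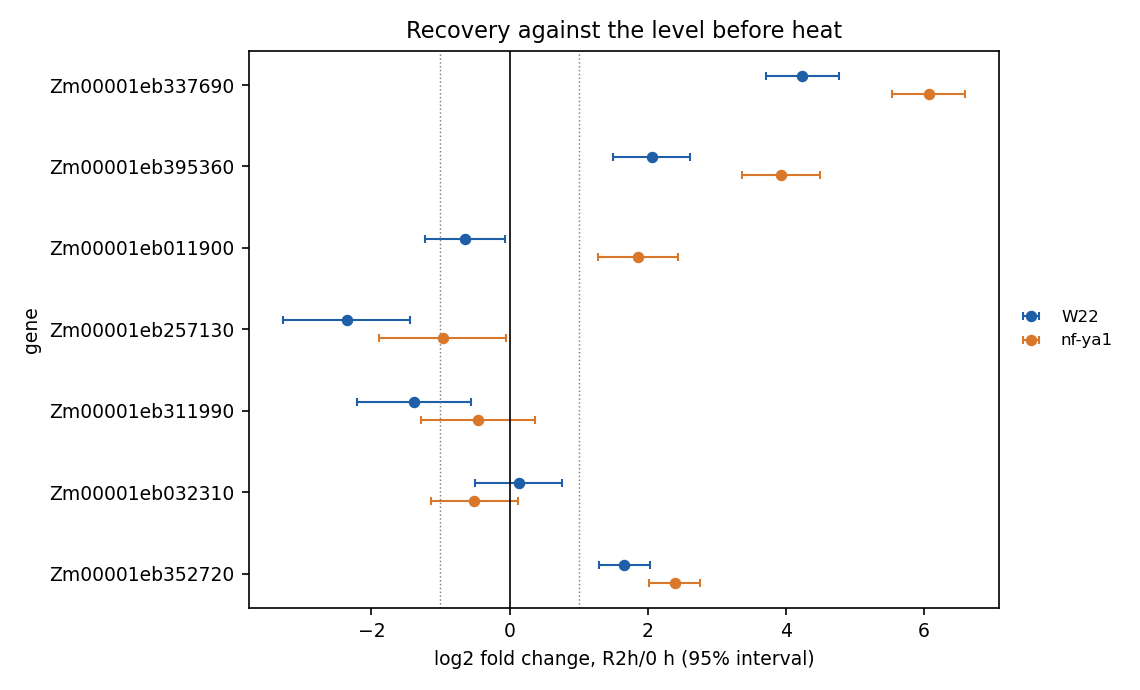
Log2 fold change of R2h over 0 h on the log2(FPKM + 1) scale in W22 and in the nf-ya1-labelled libraries for each of the 7 genes; points are estimates over 3 libraries a group, bars are 95% intervals, the solid line marks no change and the dotted lines the fold threshold of 1. Zm00001eb011900 lies at -0.64 in W22 and 1.86 in nf-ya1, and Zm00001eb337690 at 4.24 and 6.07.

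The 7 genes did not share 1 pattern. Pearson's correlation of log2(FPKM + 1) over the 18 libraries ran from -0.29 between Zm00001eb352720 and Zm00001eb257130 to 0.98 between Zm00001eb337690 and Zm00001eb395360, and the libraries share their 6 groups, so this is a description. Among genes outside the 7, the patterns most like Zm00001eb337690 were those of the HSP20 genes Zm00001eb081770 (r = 0.998) and Zm00001eb125030 (r = 0.991). The nearest to Zm00001eb395360 was Zm00001eb057010 (r = 0.990), annotated as related to Bax inhibitor 1, followed by Zm00001eb275740 (r = 0.986). Zm00001eb011900 was closest to Zm00001eb056980 (r = 0.989) and Zm00001eb400020 (r = 0.986), and Zm00001eb257130 to Zm00001eb316410 and Zm00001eb054680 (both r = 0.987). Zm00001eb311990 was closest to Zm00001eb083520 and Zm00001eb232600 (both r = 0.975). Zm00001eb352720 was closest to Zm00001eb270460 (r = 0.961) and Zm00001eb217560 (r = 0.943), whose mean FPKM was also highest at R2h. For Zm00001eb032310 the nearest were Zm00001eb108850 (r = 0.896), an alpha/beta hydrolase fold gene, and Zm00001eb264890 (r = 0.888), both under 3 FPKM in every group mean.

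Set beside other HSP20 genes, the 7 genes are not the whole heat response of the family. The study's lists of differentially expressed genes, made from these samples, hold 43 HSP20 genes. Of these, 36 are outside the 7 and 34 of those were tested. HSP20 genes outside the lists were not counted. Genes were listed for changes in these libraries, so shares above those of all genes are partly built in. At 1 h over 0 h, 17 of the 34 were called higher in W22 (5.79% of all genes) and 20 in the *nf-ya1*-labelled libraries (7.62% of all genes), 17 of them in both. Of those 20 genes, 9 were called lower and 1 higher in the *nf-ya1*-labelled libraries before heat. Under heat 0 were lower and 3 higher, in recovery 0 lower and 7 higher. Those 20 passed a filter on 1 h over 0 h in these same libraries. A low 0 h value helps a gene to pass it. All 34 tested genes gave 9 lower and 10 higher before heat (5.00% and 14.9% of all genes). Under heat they gave 0 lower and 6 higher (7.33% and 9.06%), in recovery 0 lower and 9 higher (3.10% and 5.14%). The median log2 fold change of nf-ya1/W22 at 0 h was -1.23 over the 7 genes, -0.46 over the other 34 and 0.24 over all genes. At 1 h these medians were -0.08, 0.40 and -0.05, and at R2h 0.05, 0.87 and -0.02. Whether reads of near-identical HSP20 copies were shared between genes was not tested, so values of single family members are uncertain to that extent.

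Other chaperone genes were counted from the same lists of differentially expressed genes, so high counts are partly built in. Of all genes, 5.00% were called lower and 14.9% higher in nf-ya1/W22 at 0 h, and 7.33% and 9.06% at 1 h. At 1 h over 0 h, 5.79% were called higher in W22 and 7.62% in the *nf-ya1*-labelled libraries. Hsp90 ATPase activators, co-chaperones that speed the HSP90 cycle, were called higher at 1 h over 0 h for 3 of 3 genes in each genotype, and 3 of 3 were called higher in the *nf-ya1*-labelled libraries at 1 h. DnaJ genes with the C-terminal domain, which deliver clients to HSP70, were called lower for 4 and higher for 2 of 10 at 0 h in nf-ya1/W22, and lower for 0 and higher for 2 at 1 h. Of 27 chaperonin genes of the Cpn60/TCP-1 group, which fold proteins in a closed chamber, 0 were lower and 3 higher at 0 h, and 4 lower and 2 higher at 1 h. The 1 tested gene of 4 with a Clp N-terminal domain, the domain found in HSP101, was called in none of the 3 genotype comparisons.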

How the data were processed

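RNA from leaf lamina was sequenced on the BGISEQ-500 platform, and the authors filtered the reads and aligned them to the maize B73 V5 reference. The aligner, the counter, their versions and the treatment of reads that map to several genes were not given in the sources used here. The authors deposited 1 table of FPKM values, rounded to 2 decimals, with a column for each of 18 libraries, grouped here by sample title (3 libraries in each of 6 groups). The methods name 3 biological replicates, but the labels do not say that libraries came from separate plants, and p-values measure the spread between these samples. No 2 libraries held the same values (0.533% to 3.34% of genes identical between 2 libraries).

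Values were analysed as log2(FPKM + 1). The test took the 22572 genes that reached an FPKM of 1 in 3 or more libraries. A model with 1 mean per group was fitted in R 4.3.3 with limma 3.58.1 (empirical Bayes with trend), with Benjamini-Hochberg adjustment over all genes, and was tested on simulated data. An exact permutation test of 3 libraries against 3 cannot go below p = 0.1, and p-values therefore rest on the model. Named genes are the 7 genes, *ZmNF-YA1* and, for each of the 7, the 2 other genes of highest Pearson correlation. The 7 genes, the lists and the tests were chosen with earlier results of these data known. As 0 of the gene IDs matched the RefSeq table used here, lists by product name, protein identity and promoter motifs could not be made. Annotation blocks of the study's lists of differentially expressed genes took their place, for their IDs alone. Alternatives were a pseudocount of 0.1, no filter, median-ratio scaling, quantile normalization, a replicate block, a fit of only the groups compared, an adjusted p of 0.05 and leaving out each library. Figures used Python 3.11.15 and Matplotlib 3.10.9.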

Additional observations from a re-analysis of the deposited data

Results flagged for a closer look

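The change from 0 h to R2h differed between the genotypes, by a direct test of the difference, for 3 of the 7 genes. On the log2(FPKM + 1) scale the *nf-ya1*-labelled libraries exceeded W22 by 2.50 for Zm00001eb011900, by 1.87 for Zm00001eb395360 and by 1.83 for Zm00001eb337690. Each of the 3 calls held with every one of the 18 libraries left out in turn, and that of Zm00001eb337690 was lost with a pseudocount of 0.1 (adjusted p = 0.0145). All 3 genes were also lower in the *nf-ya1*-labelled libraries at 0 h, and the libraries at 0 h enter both values. The difference is not particular to the 7 genes. Among the other 34 HSP20 genes tested it was called higher for 15 and lower for 7. Of all genes, 3.16% were called higher and 9.67% lower. The 7 and the 34 are on the study's lists of differentially expressed genes from these samples, so high counts are partly built in.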

How the results depend on the processing

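Of 294 values of the 7 genes under the alternatives in the 6 tested comparisons, 269 kept direction and side of the threshold, 13 lost a call, 6 gained one and 6 changed sign. With each library left out, 729 of 756 did. The genes called lower at 0 h were 4, and 2 when only the groups compared were fitted (2 to 5 without 1 library). The genes called higher at 1 h were 2, and 1 with a pseudocount of 0.1 or with quantile normalization (2 without any 1 library). The 1 gene called lower at 1 h became 0 with a pseudocount of 0.1, no filter, quantile normalization, only the groups compared or the replicate block (0 to 1 without 1 library). The 1 gene lower at R2h than at 0 h in W22 became 2 with median-ratio scaling, quantile normalization or an adjusted p of 0.05, and 0 with only the groups compared (1 to 2 without 1 library). Other counts stayed with 1 library left out, at 0 called at R2h, 3 higher in W22 and 4 in *nf-ya1* for R2h over 0 h, and 3 for the interaction. Signs changed only for values that were not called. Zm00001eb032310 went from 0.44 to -0.10 at 0 h with quantile normalization, and from 0.13 to -0.0153 and -0.0576 for R2h over 0 h in W22 with median-ratio scaling and quantile normalization. At 1 h, Zm00001eb011900 went to 0.0729 and 0.24 with these scalings and Zm00001eb311990 to 0.0155 with the first. Leaving out 1 library moved Zm00001eb311990 between -0.26 and 0.10 at 1 h. At R2h it moved Zm00001eb257130 between -0.37 and 0.45, Zm00001eb352720 between -0.23 and 0.0740, and Zm00001eb395360 between -0.17 and 0.28. For R2h over 0 h in W22 it moved Zm00001eb032310 between -0.0655 and 0.42. The cause was not tested. The all-gene median of nf-ya1/W22 at 0 h shifted by -0.23 with median-ratio scaling and -0.32 with quantile normalization, and the 4 calls there held under both.

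The replicate number as a block removed the call of Zm00001eb032310 at 1 h (0 genes called lower in place of 1) and changed no other call. The numbers were not taken to pair the samples. Deviations of same-numbered libraries, between genotypes at each time and between times in each genotype, correlated at -0.168 to 0.204, with 1 of 27 pairs above 0.1.

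The description of 1 h over 0 h, R2h over 1 h and the heat interaction was put under the same alternatives after the data had been seen. With median-ratio scaling, 1 h over 0 h moved upward by more than the spread between replicates for all 7 genes in both genotypes, for example from 0.03 to 0.89 for Zm00001eb032310 and from 4.94 to 6.10 for Zm00001eb257130 in *nf-ya1*, and from 0.76 to 1.34 for Zm00001eb352720 in W22. The heat interaction kept its sign for all 7 genes under the pseudocount and both scalings. With a pseudocount of 0.1 it went from 1.58 to 2.90 for Zm00001eb311990 and from 2.23 to 3.17 for Zm00001eb337690, and with quantile normalization from -1.48 to -0.89 for Zm00001eb032310. Depth per gene is unknown, so low values such as those of Zm00001eb311990 carry an error that only the replicates show.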

Other observations

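Of the other HSP20 genes, 3 were called higher in the *nf-ya1*-labelled libraries at 1 h among those raised by heat. They are named here after their values were seen. Zm00001eb011880 had a mean FPKM of 0 in W22 at 0 h, 0.947 at 1 h and 0 at R2h, and of 55.2, 2346 and 388.5 in the *nf-ya1*-labelled libraries. Zm00001eb395330 had means of 0, 0.07 and 0 in W22, and of 2.56, 1233 and 54.0 in the *nf-ya1*-labelled libraries. Zm00001eb395370 had means of 0.0433, 0.0967 and 0 in W22, and of 5.21, 568.8 and 72.6 in the *nf-ya1*-labelled libraries. These genes were at or near 0 in every W22 group, unlike the 4 most induced of the 7 genes, and how many reads lie behind the W22 values is unknown.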
